A study of Mus musculus with 6 samples.

Results

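Kit and the PDGF receptors are related receptor tyrosine kinases of class III, and the genes described here are these receptors with ligands that bind them: Kit, Kitl, Pdgfra, Pdgfrb, Pdgfa and Pdgfc. All probe sets whose platform gene symbol is exactly one of these 6 names were taken, which gave 15 of the 45037 probe sets measured, for 6 of 18193 genes. No probe set that the platform annotation lists under another gene symbol as well was used. Probe sets of 1 gene read the same transcript pool, and several stand under the same transcript record in the platform annotation, so they are not independent measurements. The genes were chosen by name with results of the knockout and parental comparison known, in particular the lower signal of Kit in knockout samples, so every difference between the groups is given for these genes as a description.

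Class III receptors have immunoglobulin-like domains outside the cell and a kinase domain that is split by an insert. A dimeric ligand brings a pair of receptors together, the kinases phosphorylate each other, and adaptors that dock on the phosphotyrosines start the Ras and MAP kinase, PI3 kinase and phospholipase C branches. Kit is the receptor for Kit ligand (stem cell factor), which is made in a membrane-bound and a soluble form, and the pair is needed for germ cells, melanocytes, mast cells and blood progenitors. Pdgfra binds PDGF-A and PDGF-C among others and marks fibroblasts, mesoderm and primitive endoderm. Pdgfrb is a receptor of fibroblasts and pericytes. Kit is known from mouse embryonic stem (ES) cells, while fibroblasts used as feeders are a known source of Kit ligand.

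Total RNA of 6 samples was hybridised to Affymetrix arrays, 3 from a Dppa4 knockout ES cell line (CI#243.12) and 3 from the Dppa4 hemizygous parental line (CI#84.2), which keeps 1 copy of the gene. Each group is thus a single cell line, and both were cultured on mouse embryonic fibroblast feeders, so every sample holds RNA of ES cells and of feeders. No array of feeders alone or of ES cells without feeders was analysed here. The cells that gave rise to a signal therefore cannot be told apart, nor can fewer cells of a type and less RNA per cell. Values are RMA values on the log2 scale, and differences are knockout minus parental. A probe set is called when its adjusted p in limma's fit over all 45037 probe sets is under 0.05. The background level of 3.78 was taken from odorant and vomeronasal receptor genes, as the value under which 95% of their 80 probe set means lay.

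Dppa4 itself read 10.30, 10.35 and 10.45 on the parental arrays and 8.68, 8.84 and 8.68 on the knockout arrays. The difference of -1.63 (adjusted p = 0.000112, limma) has the direction of the labels, but all knockout values stayed above background. Whether this probe set covers deleted sequence is unknown, so the values check the labels only in part. Pairs of arrays correlated between 0.994 and 0.997 over all probe sets. All 24 measured feeder fibroblast markers and all 19 measured ES cell markers lay above background. The mean of the feeder markers was 10.41, 10.53 and 10.41 on parental and 10.65, 10.46 and 10.59 on knockout arrays, a difference of 0.12 with overlapping groups (exact permutation p = 0.200, two-sided). The mean of the ES cell markers was 10.37, 10.38 and 10.33 on parental and 10.20, 10.28 and 10.23 on knockout arrays, a difference of -0.12 without overlap (exact permutation p = 0.1, the smallest that 3 arrays against 3 can give).

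Kit fell on both of its probe sets, to 52.1% and 57.7% of the parental signal. The 250 bases upstream of its transcription start, and those of Pdgfc, the other member that read lower on every knockout array and probe set, are printed because their base composition differs. Both come from RefSeq on the build GRCm38.p6, plus strand, at chr5:75574737-75574986 for Kit and chr3:81036166-81036415 for Pdgfc. Capitals mark matches, on either strand, to TCCCGC, an E2F-type core, or GGGCGG, a GC box.
Kit: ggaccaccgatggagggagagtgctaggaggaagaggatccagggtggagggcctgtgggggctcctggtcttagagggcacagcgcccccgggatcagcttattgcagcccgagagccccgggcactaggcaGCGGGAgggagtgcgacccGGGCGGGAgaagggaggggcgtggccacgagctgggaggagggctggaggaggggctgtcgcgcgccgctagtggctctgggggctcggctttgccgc
Pdgfc: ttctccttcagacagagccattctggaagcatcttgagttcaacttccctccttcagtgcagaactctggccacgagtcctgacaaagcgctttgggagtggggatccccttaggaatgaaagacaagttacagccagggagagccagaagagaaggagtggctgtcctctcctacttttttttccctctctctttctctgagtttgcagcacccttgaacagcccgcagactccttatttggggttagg

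The Kit window held 2 E2F-type matches and 1 GC box, which overlaps one of them, and the Pdgfc window held no match to either. Over 32841 windows of the same length in the table, 16.9% held TCCCGC and 32.7% held GGGCGG. Kit had 17 CpG dinucleotides in a window of 70.8% G and C, an observed over expected CpG ratio of 0.601, and Pdgfc had 3 in a window of 50.8%, a ratio of 0.187. The median ratio over all windows was 0.374. Windows were found for 5 of the 6 genes. The Kitl window and both Pdgfa windows also held both motifs, and the Pdgfra window, with 4 CpG dinucleotides, held neither. A TATAAA box stood only in the Kitl window among those of the members, against 12.4% of all windows, and the E-box CACGTG in none of theirs, against 6.02% of all. The genes with both motifs thus include Kit, which was called, and Kitl and Pdgfa, which were not.

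**Figure D1:**
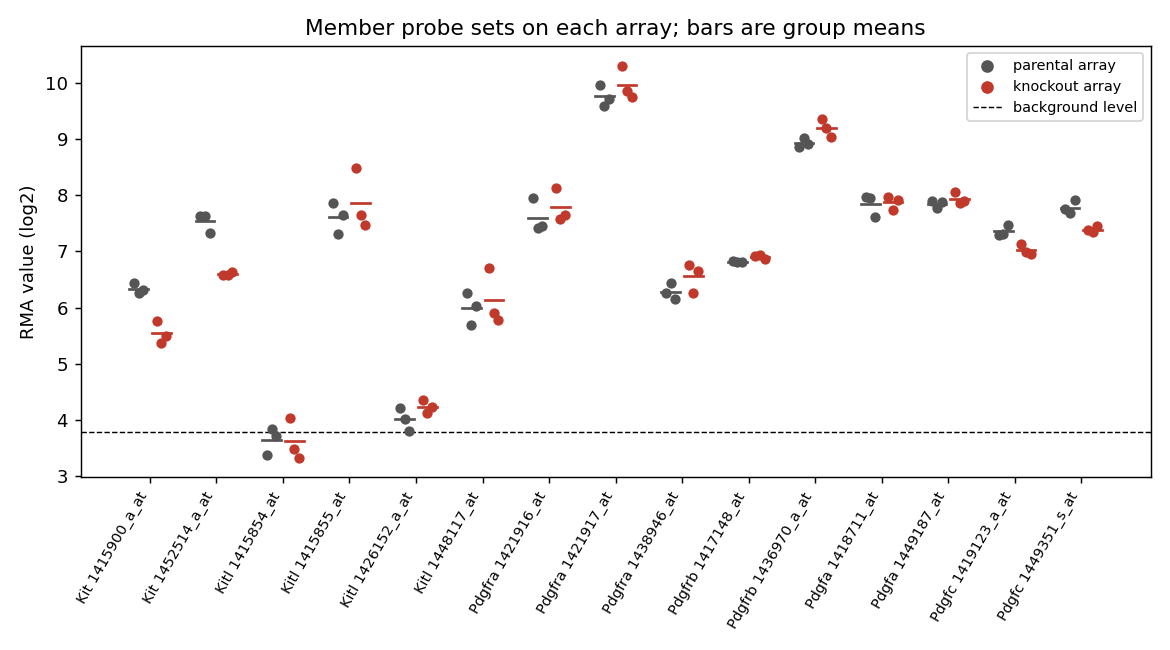
RMA values (log2, vertical axis) of the 15 member probe sets on the 3 parental and 3 knockout arrays, with group means as bars and the background level of 3.78 dashed. The knockout means of Kit differ from the parental means by -0.94 and -0.79 without overlap, and 1 of the 4 Kitl probe sets lies at background.

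Kit, the receptor for Kit ligand, has 2 probe sets. On 1452514_a_at the parental arrays read 7.64, 7.64 and 7.33 and the knockout arrays 6.58, 6.58 and 6.63. The lowest parental value was thus above the highest knockout value, and the knockout values lay close together. The means were 7.54 ± 0.18 and 6.60 ± 0.03 (SD, n = 3), a difference of -0.94 (SE 0.10, 95% interval -1.17 to -0.71). On 1415900_a_at the parental arrays read 6.43, 6.26 and 6.32 and the knockout arrays 5.76, 5.37 and 5.50. Again the groups did not overlap, with means of 6.34 ± 0.09 and 5.54 ± 0.20 (SD, n = 3) and a difference of -0.79 (SE 0.11, 95% interval -1.04 to -0.54). All knockout values of Kit stayed above background.

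Both Kit probe sets were called (limma, adjusted p = 0.00761 and 0.0267), values that brought the gene into this set and are not tested again. They were the 2 called among the 15 member probe sets, while 0.402% of all probe sets were called. With parental replicate 1 or knockout replicate 1 left out, 1452514_a_at had an adjusted p of 0.0508 and 0.0510. For 1415900_a_at the values were 0.138, 0.0812 and 0.103 when parental replicate 1, 2 or 3 was left out, and 0.0743 and 0.144 when knockout replicate 2 or 3 was. With the feeder marker mean as a covariate the differences were -0.99 and -0.90, as large as without it, with adjusted p of 0.0694 and 0.102 (limma). Both probe sets have the a_at ending, given to probe sets that match several transcripts of a gene. The RefSeq synonyms of Kit include Tr-kit, a truncated form known from male germ cells, and which transcripts these probe sets read is not given in the sources used here.

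**Figure D2:**
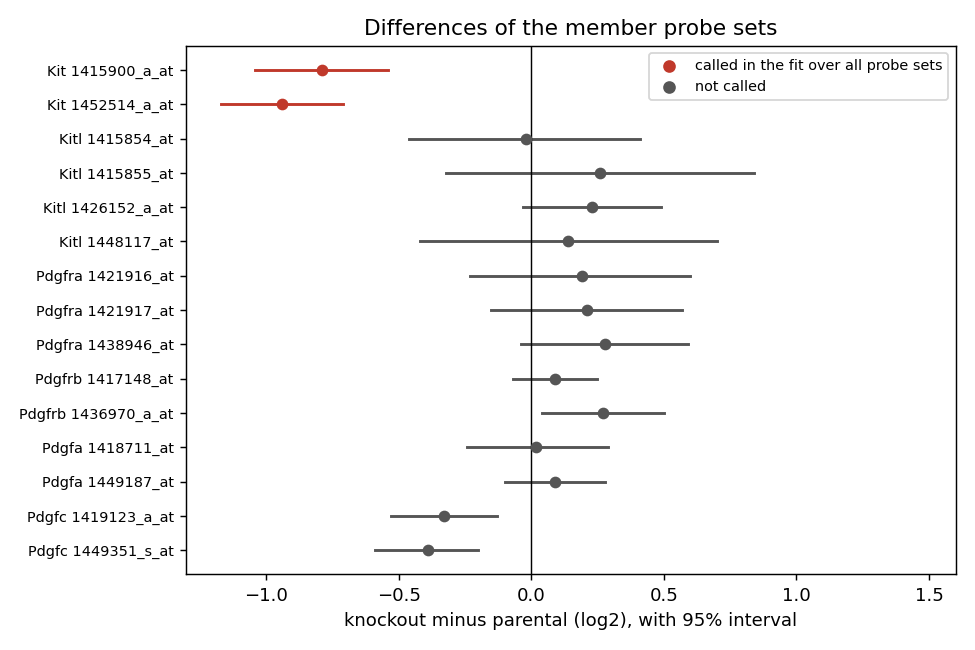
Difference between knockout and parental means (log2, horizontal axis) of each member probe set, with its 95% interval from limma. The intervals of Kit end at -0.54 and -0.71, those of Pdgfc end below 0, and 10 of the 15 differences are above 0.

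Kitl, which encodes the ligand of Kit, varied more between arrays of one group than between the groups. Its brightest probe set, 1415855_at, read 7.87, 7.32 and 7.66 on parental arrays and 8.49, 7.66 and 7.47 on knockout arrays. The highest of the 6 was knockout replicate 1 and the lowest parental replicate 2, and the other values overlapped. The difference was 0.26 (SE 0.25), and its 95% interval from -0.32 to 0.84 spans 0 widely. Probe set 1448117_at gave the same order of arrays, with 6.26, 5.68 and 6.03 in parental and 6.71, 5.91 and 5.77 in knockout samples, and a difference of 0.14 (95% interval -0.42 to 0.70). Without knockout replicate 1 these differences were -0.05 and -0.15, and without parental replicate 2 that of 1448117_at was -0.01. The other probe sets were dim: 1426152_a_at read 3.80 to 4.20 in parental and 4.12 to 4.35 in knockout samples, and 1415854_at was not above background. The ligand of Kit thus showed no difference beyond its own spread while the receptor was lower, but the intervals are too wide to show equal levels.

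Pdgfra, the receptor for PDGF-A and PDGF-C, read somewhat higher in knockout samples on its 3 probe sets, with overlap on each. On 1421917_at the parental arrays read 9.98, 9.60 and 9.73 and the knockout arrays 10.32, 9.87 and 9.75, a difference of 0.21 (SE 0.16, 95% interval -0.15 to 0.57). Replicate 1 was the highest array of both groups here, as it was on 1421916_at (7.95 and 8.14) and on Kitl 1415855_at. Differences on 1421916_at and 1438946_at were 0.19 (95% interval -0.23 to 0.60) and 0.28 (-0.04 to 0.59). With the feeder marker mean as a covariate the 3 differences, in the order 1421917_at, 1421916_at and 1438946_at, were 0.15, 0.08 and -0.02. Knockout replicate 1, the highest of the 6 arrays for Pdgfra 1421917_at and Kitl 1415855_at, also had the highest feeder marker mean, 10.65. Parental replicate 1, the highest parental array for both, had a feeder marker mean of 10.41, the same as parental replicate 3. Parental replicate 2, the lowest of the 6 arrays for both (9.60 and 7.32), had the highest parental feeder marker mean, 10.53. The part of feeder content in these values was not tested.

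Pdgfrb, the receptor of fibroblasts and pericytes, had slightly higher values on all knockout arrays. On 1436970_a_at the values were 8.86, 9.03 and 8.92 in parental and 9.37, 9.20 and 9.05 in knockout samples. The groups were separated by a gap of a few hundredths, and the difference was 0.27 (SE 0.10, 95% interval 0.04 to 0.50). On 1417148_at the parental arrays lay between 6.81 and 6.83 and the knockout arrays between 6.87 and 6.94, with a difference of 0.09 (95% interval -0.07 to 0.25). Neither probe set was called. The differences with the feeder marker mean as a covariate were 0.18 on 1436970_a_at and 0.10 on 1417148_at. Groups without overlap were found on 6 of the 15 member probe sets, both of Kit, both of Pdgfc and both of Pdgfrb, and on 14.2% of all probe sets.

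Pdgfa, which encodes the A chain of PDGF, had overlapping values in both lines. Its probe set 1449187_at read 7.90, 7.77 and 7.88 on parental and 8.06, 7.87 and 7.90 on knockout arrays, with a difference of 0.09 and a 95% interval of -0.10 to 0.28. On 1418711_at the difference was 0.02 (95% interval -0.24 to 0.29). The interval on 1449187_at was the narrower, and on both probe sets the arrays of the groups overlapped.

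Pdgfc, a PDGF made as a latent protein that proteases activate, read lower in knockout samples on both probe sets. On 1449351_s_at the parental arrays read 7.75, 7.68 and 7.92 and the knockout arrays 7.38, 7.34 and 7.45. All knockout values lay below all parental values, at 76.1% of the parental signal, with a difference of -0.39 (SE 0.09, 95% interval -0.59 to -0.20). This probe set has the s_at ending, given to probe sets whose probes can match several transcripts, also of other genes. Such matches were not checked beyond the gene symbol in the platform annotation. On 1419123_a_at the values were 7.29, 7.32 and 7.48 against 7.14, 6.99 and 6.96, a difference of -0.33 (95% interval -0.53 to -0.13). Neither was called (limma, adjusted p = 0.156 and 0.247). With the feeder marker mean as a covariate the differences were -0.37 and -0.36. Over the 15 probe sets the median difference was 0.09, against 0.00 over all probe sets, and the members moved in both directions.

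**Figure D3:**
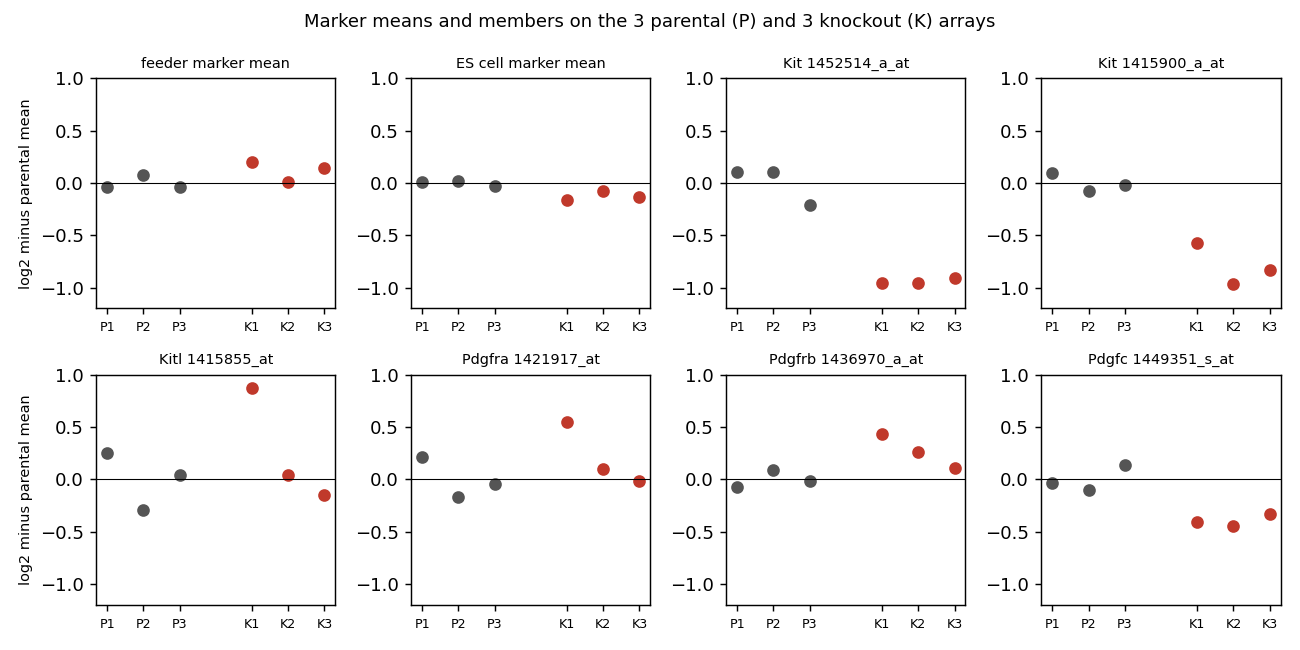
Values on each array minus the mean of the parental arrays (log2, vertical axis) for the feeder and ES cell marker means and for 6 member probe sets, on the parental (P1 to P3) and knockout (K1 to K3) arrays. Kit lies far below 0 on all knockout arrays, while the marker means differ by 0.12 in opposite directions and Kitl and Pdgfra are highest on knockout replicate 1.

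Pdgfra and Kit are adjacent protein-coding genes on mouse chromosome 5, followed by Kdr, the gene of a VEGF receptor. The stretch of 14 protein-coding genes from Fip1l1 to Cep135 was fully measured, in RefSeq gene order of GRCm38.p6. Of the 12 that are not members, 1 fell and 0 rose by the limma test, while 0.511% of all genes were called lower. That gene was Pdcl2, which encodes a phosducin-like protein and is known mainly from testis. It read 5.56, 5.87 and 5.24 on parental and 4.35, 4.68 and 4.36 on knockout arrays, a difference of -1.09 (SE 0.16, adjusted p = 0.0368, limma). The call ended when parental replicate 1 or 2 (adjusted p = 0.165 and 0.0802) or knockout replicate 1, 2 or 3 (0.173, 0.0562 and 0.171) was left out, and with the feeder marker mean as a covariate (0.215).

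None of the other neighbours was called. Of the 12 neighbours, Pdcl2 included, 10 had the lower mean in knockout samples and 2 the higher, with a median difference of -0.10. Their list mean was 6.29 to 6.44 in parental and 6.22 to 6.25 in knockout samples. Kdr, on one side, gave -0.23 (SE 0.12) from a parental mean of 4.80, and Pdgfra, on the other, gave 0.21. Gsx2, a homeobox gene beyond Pdgfra, was not above background. Chic2 gave -0.08, Srd5a3, a gene of dolichol synthesis, -0.18, Tmem165 -0.10, the circadian gene Clock -0.09, Exoc1 -0.11 and Cep135 0.10. Fip1l1, an mRNA polyadenylation factor gene, gave -0.17. Lnx1, a ubiquitin ligase gene, gave 0.57 (SE 0.13, adjusted p = 0.164, limma) without overlap between groups, and Nmu was not above background. Another Lnx1 probe set, 1450251_a_at, gave 0.32 (SE 0.11), also without overlap and not called.

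**Figure D4:**
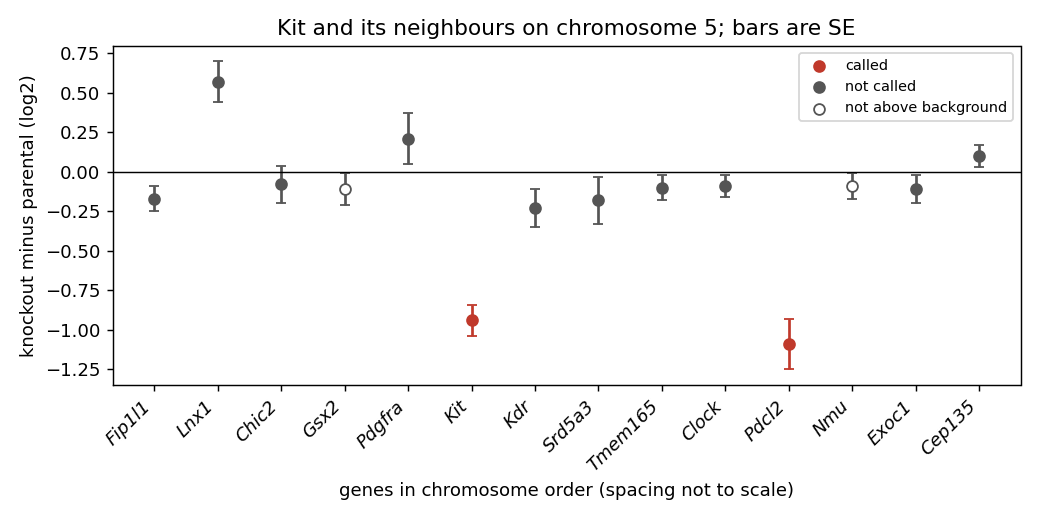
Difference between knockout and parental means (log2, vertical axis) with its SE for 14 genes in their order along chromosome 5, 1 probe set each. Kit and Pdcl2 were called, both lower; Pdgfra and Kdr, on either side of Kit, were not.

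Among 14 measured transcription factors known upstream of Kit in one or another lineage, 1 fell, 0 rose and 13 were not called. Their median difference was -0.10, and 0.511% of all genes were called lower. The one that fell was Sohlh2, a basic helix-loop-helix factor of germ cells that is known to promote Kit expression in spermatogonia. It read 7.16, 7.07 and 6.95 on parental and 5.18, 4.34 and 4.50 on knockout arrays, a 5.23-fold difference (-2.39, SE 0.20, adjusted p = 0.00204, limma). Its partner Sohlh1 was not above background. Without overlap between groups, but not called by limma, Mitf, the melanocyte factor, gave -0.52 (adjusted p = 0.257) and Prdm14 -0.49 (0.281). The same held for Tfap2c at -0.36 (0.122), Zbtb16 at -0.20 (0.548) and Myb at 0.57 (0.193). These genes are named after their values were seen. Without overlap, 5 of the 14 factors were lower and 1 higher, while 14.2% of all probe sets had no overlap in either direction.

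Genes that act with or below these receptors showed no calls. In 8 lists with 116 measured genes, 113 of them above background, 0 were called by limma, while 0.605% of all genes were. At an unadjusted p under 0.05, 3 were lower and 3 higher, and limma with an intensity trend and robust prior also called 0. Their median difference was 0.04, against 0.00 over all genes. Some genes of the Ras and MAP kinase and PI3 kinase lists were not analysed here, so 8 and 14 genes stand for those branches.

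Among 13 relatives of the receptors and ligands, Pdgfd, a ligand of Pdgfrb, read 5.08, 4.86 and 5.37 on parental and 5.74, 5.78 and 5.10 on knockout arrays, a difference of 0.44 (SE 0.20) with overlap. Of 22 adaptors and proximal kinases, the Src family kinase gene Yes1 gave -0.43 (SE 0.13, adjusted p = 0.302, limma) and Grb2, the adaptor that links receptors to Ras activation, -0.26 (SE 0.09, adjusted p = 0.424). Other Yes1 probe sets gave -0.60 on 1418470_at and -0.41 on 1456843_at, both without overlap, and 0.15 on 1458878_at, which was not above background. In the PI3 kinase and Akt list Gsk3b gave 0.15 and the catalytic subunit gene Pik3ca 0.13, and in the Ras and MAP kinase list Nras gave -0.19 and Braf -0.10. Dusp6, a phosphatase that inactivates ERK and is induced by it, read 8.25, 8.68 and 8.08 on parental and 8.75, 8.46 and 8.81 on knockout arrays, which overlapped. Its difference of 0.34 (SE 0.16) and that of Dusp4, 0.26 (SE 0.26), were the largest in size among 21 feedback inhibitors. Of 17 immediate early genes, Egr2 gave 0.34 (SE 0.26) and Fosb -0.30 (SE 0.16). Etv4, an ETS factor gene downstream of ERK, gave 0.28 (SE 0.08, adjusted p = 0.267), while its relative Etv5 gave -0.13 and, on 1420998_at, another of its probe sets, -0.37 without overlap (limma, adjusted p = 0.187).

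Among 15 genes of ligand processing and PDGF binding partners, the largest difference was that of Nrp2, a co-receptor for VEGF and semaphorins. It read 7.52, 7.86 and 7.58 on parental arrays and between 6.51 and 7.12 on knockout arrays, -0.78 (SE 0.16, adjusted p = 0.134, limma), without overlap. Other Nrp2 probe sets gave -0.44 on 1426528_at, -0.35 on 1456778_at and -0.31 on 1447343_at, and none was called. Pcsk5, a proprotein convertase gene, gave 0.42 (SE 0.27). None of these single values passed the test.

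Markers of other cell types known to carry Kit or PDGF receptors were read next to the members. Of 12 mast cell and blood progenitor markers 8 were not above background, Cpa3 and Ptprc among them, and none was called. Cd34 gave 0.28 (SE 0.21) and Gata1 0.22 (SE 0.10), and the list mean lay between 3.50 and 3.54 in parental and 3.56 and 3.60 in knockout samples. Of 8 melanocyte markers Tyr, Tyrp1 and Dct were not above background, and the list mean was at least 4.89 in parental and 4.80 to 4.85 in knockout samples. Of this list 1 gene was called lower, against 0.511% of all genes. Its 1 fall was Mlana (-1.15, SE 0.18, adjusted p = 0.0396, limma), whose call ended when parental replicate 1 or 2 (0.156 and 0.150) or any 1 knockout replicate (0.0700, 0.101 and 0.169) was left out, and with the feeder covariate (0.0965). Of 15 primitive endoderm markers none was called, Gata4, Cubn and Amn were not above background, Lrp2 gave -0.67 (SE 0.25) and Lama1 -0.32 (SE 0.11); list means were 5.41 to 5.46 and 5.30 to 5.42. Other Lrp2 probe sets gave -0.52 (SE 0.11) on 1427133_s_at, without overlap but not called, and -0.02 on 1445901_at, which was not above background. The mesoderm list, 13 genes without a call, had means of 4.78 to 4.96 and 4.85 to 4.91, with Bmp4 at 0.51 (SE 0.09, adjusted p = 0.0793). The 11 smooth muscle and pericyte markers had means of 6.42 to 6.56 and 6.32 to 6.59 and no call, with Myh11 at -0.22 and Abcc9 at 0.19.

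Among 9 endothelial markers 1 fell, Tek, which encodes the angiopoietin receptor and is a receptor tyrosine kinase like Kit. Tek read 6.18, 5.92 and 5.84 on parental and 4.72, 4.39 and 4.15 on knockout arrays, a 2.95-fold difference (-1.56, SE 0.15, adjusted p = 0.00469, limma). Pecam1, which ES cells also carry and which is named after its value was seen, gave -0.71 (SE 0.16, adjusted p = 0.169), and the endothelial genes Cdh5, Tie1 and Emcn were not above background. The list mean was 4.52 to 4.62 in parental and 4.24 to 4.36 in knockout samples. Over all genes 0.511% were called lower, beside the 1 of 9 here.

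Germ cell markers were lower in knockout samples as Kit was. Of 15 measured, 9 fell, 0 rose and 6 were not called, while 0.511% of all genes were called lower. The median difference was -1.25, and the list mean lay between 5.51 and 5.63 in parental and 4.21 and 4.29 in knockout samples. This list was chosen with earlier results of these data known, so its counts and median are a description. Syce1, a synaptonemal complex gene, was at least 9.38-fold lower, the piRNA pathway gene Mael at least 8.02-fold and the RNA-binding protein gene Dazl at least 3.10-fold (limma, adjusted p = 0.000155 or lower); a bound is given where all knockout arrays lay at or below background. On another Dazl probe set, 1449502_at, the bound was smaller, 2.31-fold (limma, adjusted p = 0.000946). The part of these transcripts in the Kit difference was not tested. Of 24 feeder markers 0 were called by limma, and at an unadjusted p under 0.05 0 were lower and 1 higher. Lum gave 0.25 and Lox 0.23. Of these 24 genes 23 had the higher mean in knockout samples, and the median difference was 0.11. Of 19 ES cell markers 1 rose, Dnmt3l (0.65, SE 0.09, adjusted p = 0.0318), whose call ended when parental replicate 1, 2 or 3 (0.115, 0.123 and 0.130) or knockout replicate 1 or 2 (0.147 and 0.0782) was left out, and with the feeder covariate (0.104); 0.0934% of all genes were called higher. Of the same 19 genes 13 had the lower mean in knockout samples, and the median difference was -0.08. At an unadjusted p under 0.05 by limma, 7 were lower and 1 higher. Fbxo15 gave -0.57, Dppa3 -0.53 and Nanog -0.49, none of them called by limma; these 3 are named after their values were seen.

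**Figure D5:**
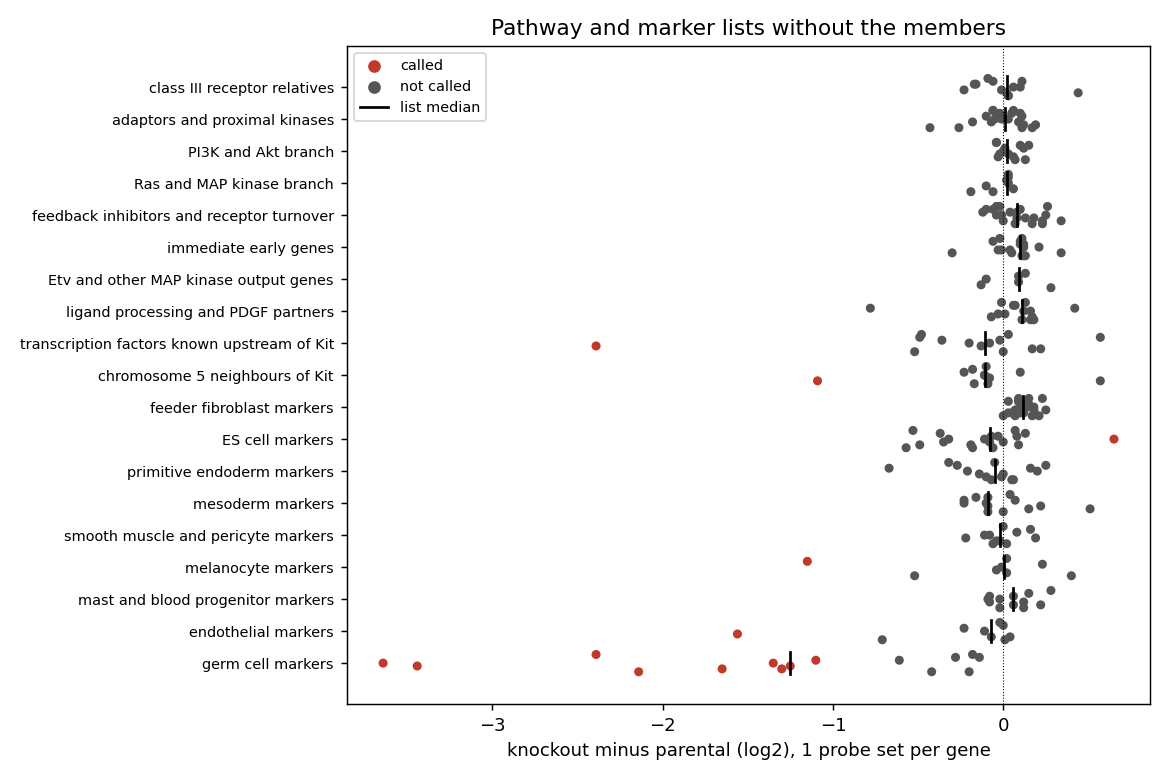
Difference between knockout and parental means (log2, horizontal axis) for the genes of 19 lists without the members, 1 probe set per gene, with list medians as black bars. The signalling lists lie around 0, and the calls, in red, gather in the germ cell list with a median of -1.25. The lists were chosen with earlier results of these data known.

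Genes whose values over the 6 arrays ran most nearly parallel to a member were found among 13377 other genes above background, as a description. For Kit they were C2cd2 (Pearson r = 0.998), Ago2 and Avpi1 (both 0.994), whose own differences were -0.20, -0.20 and -0.39. For Pdgfra they were Dpt, an extracellular matrix gene (0.990), 1500015A07Rik (0.989) and Vegfd (0.987). Kitl was followed by Hsdl2 (0.991), Samd9l (0.989) and Mapre1 (0.988), Pdgfrb by Rfk (0.988), Zfp647 (0.985) and Zfp931 (0.981), Pdgfa by Magt1 (0.993), Hoxd10 (0.988) and Entpd2 (0.987), and Pdgfc by Irx5 (0.994), Bcap29 (0.990) and Rpl7l1 (0.987). With 6 points and so many candidates, correlations of this size are found for every member, whether or not its groups differ.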

How the data were processed

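The authors deposited 1 table of log2 values per probe set, made with RMA per the submitters' processing notes; its software, chip definition and settings are not stated there. The log2 scale was read from the values (2.12 to 13.98). Because RMA equalises the distributions of arrays, a change of most transcripts in one direction cannot be seen. After 64 control probe sets were left out, 45037 were fitted with limma 3.58.1 in R 4.3.3 (lmFit, eBayes, two-sided, no covariate, Benjamini-Hochberg). The platform annotation names 1 gene for 34945 probe sets. Lists used 1 probe set per gene, the brightest, over 18193 genes. The members, lists and tests were chosen with earlier results of these data known. From each list, called genes (up to 4) are named, or else the 2 largest differences above background. Named outside this rule, after their values were seen, are Pecam1, Mitf, Prdm14, Tfap2c, Zbtb16, Myb, Fbxo15, Dppa3 and Nanog. Markers said to be not above background are also named outside it, after their values were seen. Chromosome 5 neighbours are all named, and the 3 most parallel genes are named per member. Nothing states that replicates were separate cultures, so p-values cover only the possibly technical spread of these arrays, and the number of arrays limits precision. The fit was tested on simulated data (45037 probe sets, 5 runs): it recovered 86.2% of log2 changes of 1 and 99.2% of 2, with 27 false calls over the 5 runs. The simulated noise was normal and independent between probe sets, so variation that probe sets share on real arrays was not covered. Variances were shuffled among probe sets. Changes smaller than 1, as all member differences were, were not simulated, so recovery at those sizes is not known. Alternatives were another quantile normalization, median centring, a replicate block, a trend with a robust prior, filters on dim and on x_at and s_at probe sets, a feeder covariate, other background and gene summaries, and leaving out each array.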

Additional observations from a re-analysis of the deposited data

How the results depend on the processing

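The count of all probe sets called, 181, became 88 with the replicate block, 312 with an intensity trend and robust prior, 53 with the feeder covariate, and between 70 and 112 when 1 array was left out. The 2 member calls, both of Kit, became 0 with the replicate block (adjusted p = 0.0509 and 0.0506), 0 with the feeder covariate, and 0 or 1 when 1 array was left out. The 13 list genes called became 8 with the feeder covariate, and between 7 and 11 when 1 array was left out. Replicate numbers did not pair the arrays: deviations of same-numbered arrays correlated at 0.112, -0.364 and -0.287. Arrays with different numbers were not compared in this way, so other shared structure between the lines was not tested. Over 13 alternatives Kit stayed lower, from -1.04 to -0.89 on 1452514_a_at and from -0.90 to -0.71 on 1415900_a_at. The replicate block also ended the calls of Mlana (adjusted p = 0.0579) and Dnmt3l (0.122). Tek lost its call with the feeder covariate (-1.62, adjusted p = 0.0591, limma). Signs turned on member probe sets that were not called. With 1 array left out, the range was -0.23 to 0.12 for Kitl 1415854_at, -0.05 to 0.46 for Kitl 1415855_at, -0.15 to 0.32 for Kitl 1448117_at and -0.09 to 0.09 for Pdgfa 1418711_at. Pdgfra 1438946_at gave -0.02 and Pdgfa 1418711_at -0.12 with the feeder covariate. The cause of these changes was not tested. Member probe sets above background numbered 14, and 13 at the 99th percentile; dim signals limit Kitl 1415854_at and 1426152_a_at. The feeder marker mean difference ranged from 0.08 to 0.17 and that of the ES cell markers from -0.14 to -0.10 without 1 array.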

Other observations

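Kit is 1 of 56 receptor tyrosine kinase genes measured on these arrays, a list written after values had been seen. Of these, 49 lay above background, 2 fell by limma's adjusted p and 0 rose, and the median difference was 0.01. The genes that fell were Kit and Tek, the angiopoietin receptor gene (-1.56, adjusted p = 0.00469, limma), while 0.511% of all genes were called lower. Without the members, 53 genes were left, with 1 lower and 0 higher.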
